A study of Mus musculus with 10 samples.

Results

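Accessible chromatin of mouse lung was compared between mini-bulks of about 200 and of 50 nuclei cut from tissue sections by laser microdissection. The comparison used 6 of the 10 libraries of the study, 3 of each size, chosen by tissue and nuclei number as labelled; the other 4 came from brain. All animals were C57BL/6J WT mice; age was not given, and nothing says whether the 3 libraries of a size came from separate animals. The 50-nuclei mini-bulks held 50 nuclei captured individually, and the 200-nuclei mini-bulks held 10 captured areas of roughly 20 nuclei each. Nuclei number and capture mode therefore changed together and cannot be told apart. The labels promise technical duplicates at the least, so each p-value below measures the spread between these libraries, which may be technical.

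In ATAC-seq the Tn5 transposase inserts sequencing adapters into open DNA, so a stretch with many reads, a peak, marks open chromatin. Gene starts are often held free of nucleosomes in most cell types, while many distal elements and elements inside genes are open in only some of the cell types of a tissue. The alveolar lung holds capillary endothelium, flat alveolar type 1 cells that exchange gas, surfactant-making alveolar type 2 cells, mesenchyme and immune cells. Each nucleus carries few copies of a locus, so a small mini-bulk offers few DNA molecules per peak.

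The deposited table counted reads over 37513 peaks, of which 37511 were nuclear and 2 mitochondrial. One peak set served all 10 libraries, and how it was merged is not given in the sources used here; a peak called mainly in the deeper 200-nuclei libraries would be in it, so the share of peaks read cannot be taken as the share of all open sites. Peaks were classed as gene-end (centre no more than 1000 bp from a gene's start or finish, 13819 peaks), gene-body (elsewhere inside a gene, 13350) or distal (10342), and by width as narrow (under 150 bp, 16996), middle (12579) or wide (300 bp or more, 7936). The 50-nuclei libraries held 340697 to 703353 nuclear reads and the 200-nuclei libraries 1366128 to 3075377. Levels are given as RPM, the reads of a peak scaled to 1000000 nuclear reads in peaks. Equal depth means the share of peaks expected to keep a read when 340697 nuclear reads, the smallest lung total, are drawn from each library.

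Gene starts at both ends of the range show what was kept and what was lost; these 4 were chosen by their counts and are described with no test. Ubxn6, which encodes an adaptor of the p97 segregase, and Cic, which encodes the repressor Capicua, lay under 2 of the 6 strongest peaks of the 200-nuclei libraries. The Ubxn6 peak at chr17:56078923-56079748 (mm10; 825 bp, its centre 2 bp from the start) had 356, 198 and 298 reads in the 50-nuclei libraries and 845, 736 and 1946 in the 200-nuclei libraries. The Cic peak at chr7:25267379-25268429 had 408, 161 and 404 reads at 50 nuclei and 863, 744 and 2020 at 200. Both were read deeply in every library. Cadm4 encodes a cell adhesion molecule and Lmo7 a LIM-domain protein, and their start peaks, narrower than the kept ones, had no read in any 50-nuclei library. The Cadm4 peak at chr7:24481858-24482013 had 17, 7 and 40 reads in the 200-nuclei libraries, and the Lmo7 peak at chr14:101729686-101729920 had 33, 21 and 33. The 250 bases before each start, from RefSeq (GRCm38.p6) and read along the gene's strand, are printed with every CG dinucleotide in capitals.
Ubxn6: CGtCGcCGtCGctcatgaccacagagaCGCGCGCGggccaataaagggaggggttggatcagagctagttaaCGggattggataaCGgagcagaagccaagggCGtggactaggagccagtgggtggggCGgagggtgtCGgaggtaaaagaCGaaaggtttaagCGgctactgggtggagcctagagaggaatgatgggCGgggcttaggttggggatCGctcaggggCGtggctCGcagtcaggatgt
Cic: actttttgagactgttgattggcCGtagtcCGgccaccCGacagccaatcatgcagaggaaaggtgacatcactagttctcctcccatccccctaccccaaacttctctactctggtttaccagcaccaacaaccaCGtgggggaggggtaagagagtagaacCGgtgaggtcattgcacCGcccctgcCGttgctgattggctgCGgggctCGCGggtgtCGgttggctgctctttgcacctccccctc
Cadm4: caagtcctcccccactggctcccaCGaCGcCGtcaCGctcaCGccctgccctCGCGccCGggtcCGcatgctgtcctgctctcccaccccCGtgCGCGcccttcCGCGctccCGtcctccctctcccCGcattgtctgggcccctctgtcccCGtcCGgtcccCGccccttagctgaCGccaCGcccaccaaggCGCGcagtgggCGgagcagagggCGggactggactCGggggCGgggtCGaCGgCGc
Lmo7: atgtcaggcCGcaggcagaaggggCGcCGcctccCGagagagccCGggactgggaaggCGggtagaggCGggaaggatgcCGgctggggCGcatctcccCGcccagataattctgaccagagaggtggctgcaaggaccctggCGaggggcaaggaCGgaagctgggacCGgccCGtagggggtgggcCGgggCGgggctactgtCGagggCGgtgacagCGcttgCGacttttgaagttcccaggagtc
The windows lie at chr17:56079334-56079583 (minus strand), chr7:25267449-25267698, chr7:24481773-24482022 and chr14:101729678-101729927 (plus strand). They held 19 and 11 CG dinucleotides at the kept Ubxn6 and Cic starts and 30 and 20 at the lost Cadm4 and Lmo7 starts, against a median of 10 over 21263 such windows. All 4 were thus above the median of all listed windows, and the lost starts held no fewer than the kept ones. So few picked starts cannot show whether CG content goes with loss. Over the 10457 gene-end peaks at a listed start, those with fewest CG dinucleotides were read less often at 50 nuclei. Their mean at equal depth was 71.4%, against 78.2% and 77.7% for the groups with middle and most. Their median level at 200 nuclei was also lower, 17.6 RPM against 28.9 and 29.6.

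Fewer peaks had a read with fewer nuclei, above all among narrow and weak peaks. The 50-nuclei libraries had at least 1 read at 90.9%, 60.9% and 56.1% of nuclear peaks, and the 200-nuclei libraries at 96.1%, 97.2% and 97.6%. At equal depth the shares were 85.9%, 60.9% and 54.8% at 50 nuclei and 88.0%, 89.3% and 88.1% at 200. The groups did not overlap, yet replicate 1 at 50 nuclei lay close to the 200-nuclei libraries and the other two far below. The equal-depth means were 67.2% ± 16.5 (SD, n = 3) and 88.5% ± 0.749 (n = 3), a difference of 21.3 percentage points (exact two-sided permutation test over the 6 libraries, p = 0.1, adjusted over 8 tests 0.133). With 3 libraries against 3 this test cannot give a p below 0.1. With replicate 1 as the only 50-nuclei library the equal-depth difference was 2.60 points, and without that replicate it was 30.6 points, so its size rests on which 50-nuclei libraries are counted. It also rests on the read minimum. At equal depth, 50.4%, 45.7% and 42.4% of peaks held at least 5 reads at 50 nuclei, and 49.4%, 50.1% and 48.6% at 200. At that minimum the groups overlapped, and their means differed by 3.18 points.

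The peaks that were read in replicates 2 and 3 at 50 nuclei carried more reads each. In the mean this follows from equal depth, where the same number of reads falls on fewer read peaks. At equal depth a read peak had a median of 6, 9 and 11 reads at 50 nuclei and of 5 in each 200-nuclei library. Peaks with exactly 1 read made up 11.6%, 6.61% and 6.19% of read peaks at 50 nuclei and 12.5%, 12.6% and 13.0% at 200. Replicates 2 and 3 thus had many empty peaks, few peaks with 1 read and more peaks with many reads. Whether duplicate reads were removed is not given in the sources used here.

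**Figure D1:**
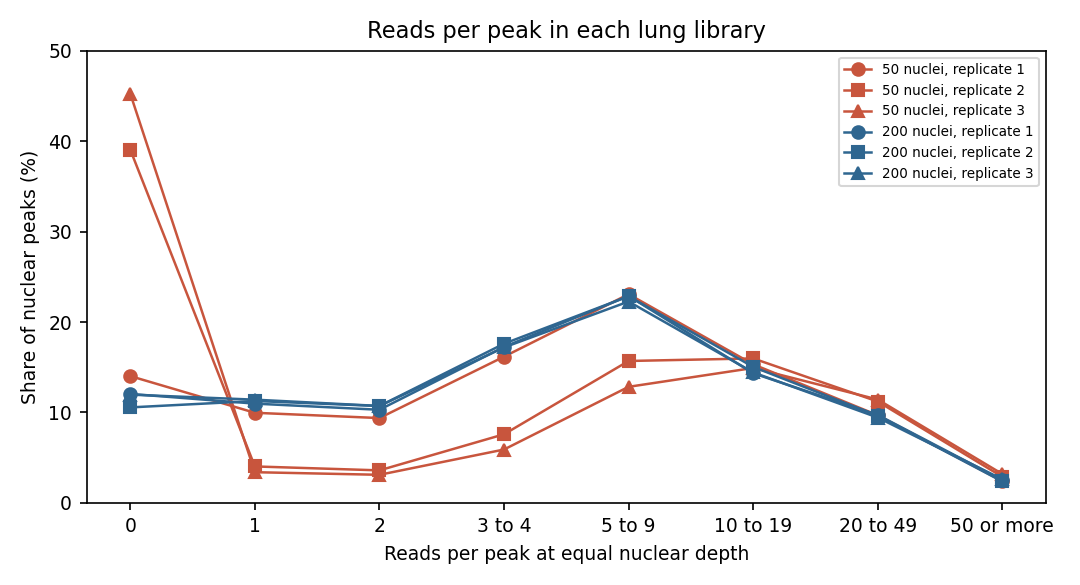
Share of the 37511 nuclear peaks (y axis, %) by reads per peak (x axis) after 1 seeded draw of 340697 nuclear reads from each lung library; each line is 1 library. Replicates 2 and 3 at 50 nuclei leave 39.1% and 45.3% of peaks empty, against 14.0% in replicate 1 and 10.6% to 12.0% at 200 nuclei.

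Gene-end peaks were kept more often than peaks elsewhere. At equal depth gene-end peaks were read at 88.7%, 69.9% and 65.5% in the 50-nuclei libraries and at 90.3%, 90.5% and 89.8% at 200. Gene-body peaks were read at 84.9%, 56.7% and 49.9% against 87.1%, 89.0% and 87.6%. Distal peaks were read at 83.4%, 54.5% and 46.8% against 86.1%, 88.2% and 86.4%. Within each library gene-end peaks led, and the lead was larger in all 3 of the 50-nuclei libraries. The lead over distal peaks was 13.2 ± 7.00 points at 50 nuclei and 3.35 ± 0.921 at 200 (n = 3 each), a change of -9.80 points (200 minus 50, exact permutation p = 0.1, no overlap). The lead over gene-body peaks changed by -8.58 points (exact permutation p = 0.1, no overlap). With replicate 1 as the only 50-nuclei library these changes were -1.96 and -1.46 points.

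Gene-end peaks within 1000 bp of a listed gene start (10457) were read at a mean of 75.7% ± 11.6 at 50 nuclei and 90.4% ± 0.434 at 200 (n = 3 each). The other gene-end peaks (3362), where no start was listed, stood at 71.7% ± 14.4 and 89.8% ± 0.241. Among gene-body peaks, the 1950 at a further listed start stood at 72.0% ± 14.3 at 50 nuclei and the 11400 away from any start at 62.4% ± 19.3. Peaks at starts inside genes thus sat nearer to gene-end peaks than to the rest of the gene body. Distal peaks within 5000 bp of a gene (1558) stood at 68.3% ± 17.0 and those farther off (8784) at 60.4% ± 19.7. Median levels at 200 nuclei were 16.3 RPM at the further starts and 10.8 RPM away from them. They were 13.5 RPM for the nearer and 9.94 RPM for the farther distal peaks. These gene-body and distal subclasses were not compared at like level.

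Wide peaks were mostly kept, and narrow peaks were the most often missed. At equal depth wide peaks were read at 99.7%, 95.1% and 91.9% in the 50-nuclei libraries and at 99.7% to 99.8% at 200. Narrow peaks were read at 73.9%, 39.3% and 32.4% against 77.1%, 79.6% and 77.3%, and middle peaks at 93.4%, 68.7% and 61.6% against 95.3%, 95.8% and 95.2%. The lead of wide over narrow peaks was 47.0 ± 18.5 points at 50 nuclei and 21.8 ± 1.37 at 200 (n = 3 each), a change of -25.3 points (exact permutation p = 0.1, no overlap). It was -4.03 points with replicate 1 as the only 50-nuclei library. When a peak had to hold at least 5 reads at equal depth, this change turned to 10.8 points, and those of the gene-end leads to 2.22 (over distal) and 1.40 (over gene-body). Among wide peaks the 50-nuclei means were 96.1% ± 3.43 for gene-end, 95.0% ± 4.32 for gene-body and 93.4% ± 5.71 for distal peaks. Among narrow peaks they were 44.6% ± 20.6, 50.6% ± 22.6 and 48.5% ± 22.9, so narrow gene-end peaks had the lowest mean of the 3 classes. Their level was also lowest, with a median of 5.28 RPM at 200 nuclei against 7.51 and 6.87.

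**Figure D2:**
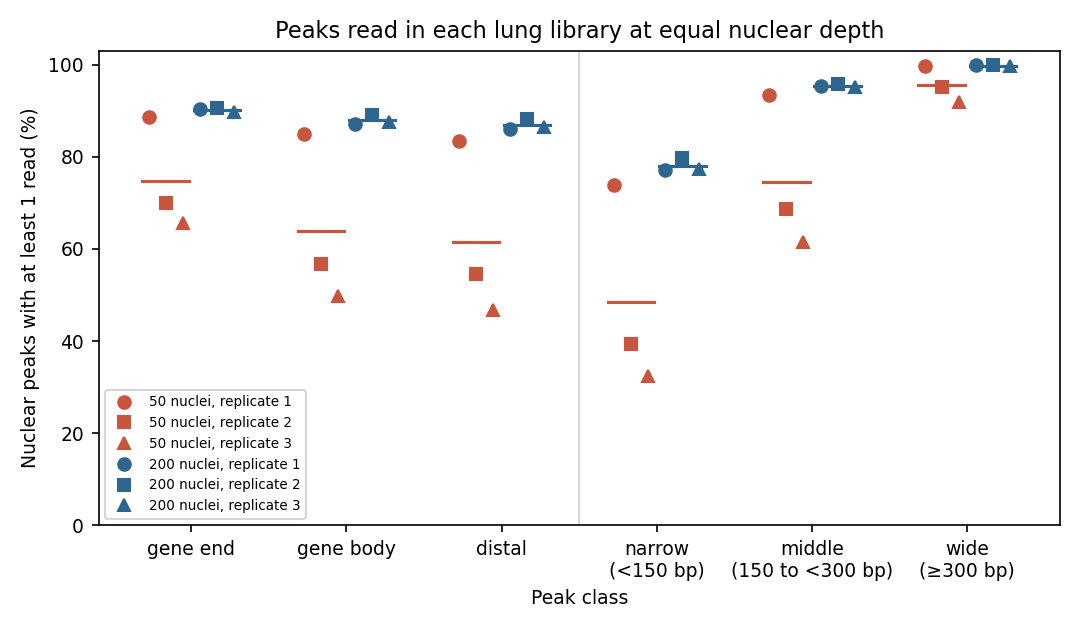
Share of nuclear peaks with at least 1 read at equal depth (y axis, %) by peak class (x axis); points are libraries and bars group means (n = 3). Wide peaks stay above 91% in every library, while narrow peaks range from 32.4% to 73.9% at 50 nuclei and from 77.1% to 79.6% at 200.

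Classes differ in level: the median over peaks of the mean RPM at 200 nuclei was 21.5 for gene-end, 11.3 for gene-body and 10.3 for distal peaks, and 60.4 for wide against 6.84 for narrow peaks. Peaks were therefore compared within bins of level, taken from 200-nuclei libraries other than the one scored; the summary over bins was chosen after the data had been seen. In the 40 RPM or more bin 100%, 98.1% and 96.4% of peaks were read at 50 nuclei at equal depth, and in the 10 to 20 RPM bin 92.0%, 60.2% and 52.3%. At 5 to 10 RPM they were 79.6%, 43.2% and 35.1% against 83.9% to 86.4% at 200 nuclei, and under 5 RPM 58.7%, 26.6% and 20.7% against 59.8% to 64.0%. Weak peaks were missed at both sizes, and the gap between the group means was widest at 5 to 10 RPM. Within bins the change in the gene-end lead over distal peaks was -2.52 points and over gene-body peaks -2.08, and the wide lead over narrow peaks changed by -7.24 (exact permutation p = 0.2 for each; bins with 20 or more peaks of both classes). Each is smaller than the value without bins. At 10 to 20 RPM, gene-end peaks were read at 94.0%, 63.6% and 56.7% at 50 nuclei and distal peaks at 90.5%, 58.7% and 50.6%, whereas under 5 RPM the order was 55.8%, 24.8% and 20.7% against 60.8%, 28.1% and 20.3%.

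**Figure D3:**
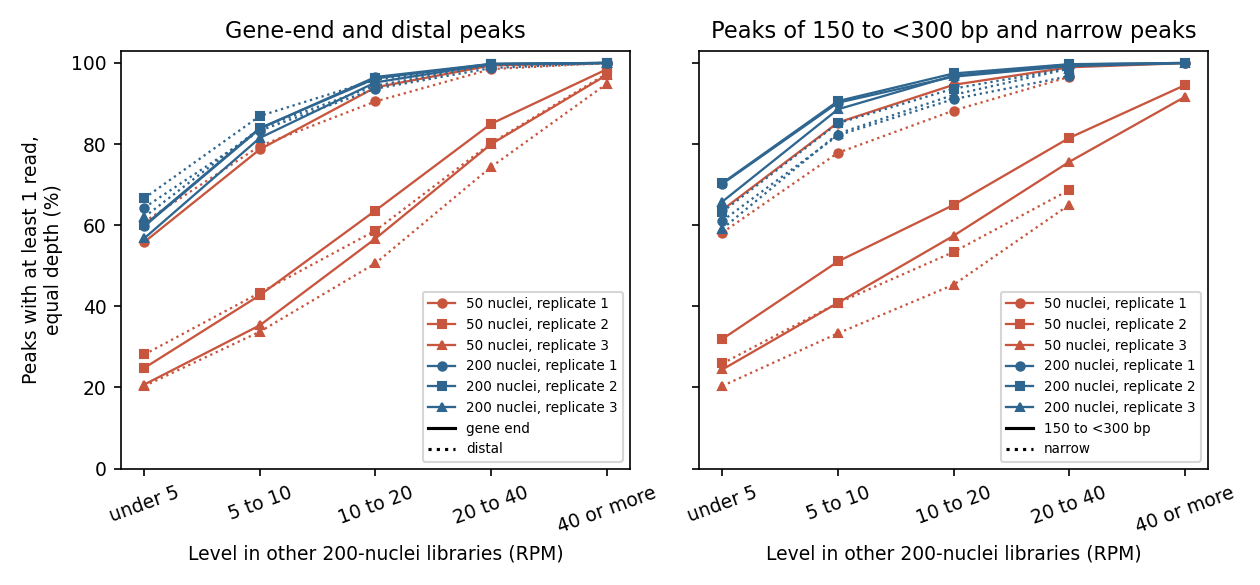
Share of peaks with at least 1 read at equal depth (y axis, %) by level in the other 200-nuclei libraries (x axis, RPM bins), for gene-end and distal peaks (left) and for middle and narrow peaks (right; the highest narrow bin is left out); each line is 1 library. All lines rise with level, and replicates 2 and 3 at 50 nuclei lie below the other 4 libraries up to 40 RPM.

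The shares of reads on gene-end peaks and on the strongest peaks overlapped between sizes, and that on wide peaks did not. Gene-end peaks took 57.7%, 56.5% and 57.0% of nuclear reads at 50 nuclei and 59.4%, 56.2% and 57.1% at 200. The means were 57.0% ± 0.580 and 57.6% ± 1.64 (n = 3 each; difference 0.508 points, exact permutation p = 0.8), and the groups overlapped. Leaving out replicate 1 at 200 nuclei turned the sign (-0.404). The top 1% of peaks of each library (375 peaks) took 11.0% ± 0.819 and 10.4% ± 0.331 of nuclear reads (difference -0.584 points, exact permutation p = 0.3), also with overlap, and +0.166 points with replicate 1 as the only 50-nuclei library. These 2 differences did not exceed the spread between replicates. Wide peaks took 61.0%, 60.8% and 61.1% of nuclear reads at 50 nuclei and 62.3%, 61.3% and 62.7% at 200, without overlap and with no test.

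Strong peaks were rarely missed. Of the 6670 peaks at 40 RPM or more in the mean of the 200-nuclei libraries, 0, 120 and 193 had no read in 50-nuclei replicates 1, 2 and 3. Of the 2754 peaks at 80 RPM or more, 0, 3 and 6 were missed, and of the 816 at 150 RPM or more none was missed in any of the 3 libraries. At the depth of replicates 2 and 3, 40 RPM corresponds to 13.6 and 21.9 reads. The 200-nuclei libraries missed none of these peaks, but they also set the level.

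Which peaks were missed differed between the 50-nuclei libraries. Replicate 2 missed 14652 peaks and replicate 3 missed 16459; 9194 were missed by both, which is 62.7% of the first set and 55.9% of the second. Among peaks of 10 to 20 RPM, 19.1% were missed by both, and the product of the separate shares was 18.1%. Under 5 RPM the values were 60.4% and 59.6%, and at 20 to 40 RPM 4.44% and 3.40%. At 40 RPM or more 0.165% (11 peaks) were missed by both, against a product of 0.0521%. In each bin the share missed by both was above the product, and relative to it most so at 40 RPM or more. Peaks within a bin differ in level, most of all in this top bin, which has no upper bound. Unequal levels alone lift the joint share above the product, so whether the losses were linked was not tested.

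Peaks read in all 3 of the 200-nuclei libraries but in no 50-nuclei library numbered 1143, 3.05% of the 37511 nuclear peaks, and 15239 (40.6%) were read in all 6 libraries. The lost peaks spanned 101 bp in the median and were weak, at a median of 4.93 RPM and a maximum of 20.9 at 200 nuclei. By class 2.60% of gene-end, 3.03% of gene-body and 3.67% of distal peaks were lost, and by width 5.81% of narrow and 0.0630% of wide peaks, the last being 5 peaks. Peaks read in all 6 libraries made up 54.7% of gene-end, 33.8% of gene-body and 30.7% of distal peaks. They made up 89.1% of wide and 13.7% of narrow peaks.

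Genes with several peaks seldom lost all of them. Of the 12670 genes with a peak, 12263, 10504 and 10135 had a read in the 50-nuclei libraries and 12474, 12513 and 12520 at 200. Genes with 1 peak (5825) had no read in 6.47%, 27.3% and 31.1% of cases at 50 nuclei and in 2.45% to 3.16% at 200. Of the 1169 genes with 5 or more peaks, 0, 15 and 11 had no read at 50 nuclei and 0 at 200.

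Levels over peaks, empty ones included, were less alike between libraries of 50 nuclei. Across nuclear peaks at equal depth, on log2(RPM + 1), the median Pearson r was 0.54 over the 3 pairs of 50-nuclei libraries and 0.71 over the 3 pairs of 200-nuclei libraries. For gene-end peaks the medians were 0.65 and 0.81, for distal peaks 0.39 and 0.56, for narrow peaks 0.15 and 0.32, and for wide peaks 0.54 and 0.80. Replicate 1 at 50 nuclei correlated with the 200-nuclei libraries at 0.66 to 0.68, and replicates 2 and 3 at 0.55 to 0.58. Each pair of 50-nuclei libraries includes replicate 2 or 3. These are descriptions across peaks, which share libraries and are not independent replicates.

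No single peak passed the test for a difference in level. edgeR's quasi-likelihood test called 0 of 37466 peaks (0%) at an adjusted p under 0.05, and 3071 peaks had an unadjusted p under 0.05. Of these 2674 (7.14%) were higher and 397 (1.06%) lower at 200 nuclei, and the median log2 difference over all peaks was 0.33. That split moved with the scaling, to 4732 higher and 289 lower with library totals and to 2176 and 946 with DESeq2 (both unadjusted). Library totals include the mitochondrial reads, whose share was higher at 50 nuclei. With nuclear peaks only, edgeR gave 3233 higher and 266 lower (unadjusted). DESeq2 called 3 peaks, each lower at 200 nuclei. Without 50-nuclei replicate 1, edgeR called 252 nuclear peaks, 243 of them higher at 200. Of the 243, 166 were gene-end peaks, as were 13819 of all 37511 nuclear peaks and a mean of 4543 of 6694 in the 40 RPM or more bin. No read fell on 112 of the 243 in either of the 50-nuclei libraries still in the fit. All 243 had reads in the replicate left out, at a median of 41.2 RPM against 38.0 at 200 nuclei. That replicate missed only 0.207% of all peaks of 20 to 40 RPM and 0% of those of 40 RPM or more. Those calls thus rest on leaving out the library that read these peaks. In RPM, 4491 peaks (12% of 37464) were higher in every 200-nuclei library than in every 50-nuclei library, and 1190 (3.18%) were lower.

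None of the 10 peaks with the lowest p in each direction passed adjustment (edgeR adjusted p = 0.487 for each of the 20). Pold2, a subunit gene of DNA polymerase delta, had 22.7, 26.4 and 34.7 RPM at 50 nuclei and 115, 89.3 and 64.1 at 200 (chr11:5878157-5878476). Actr2, which encodes a subunit of the actin-branching Arp2/3 complex, had 37.0, 23.5 and 31.0 RPM against 109, 76.1 and 83.6. Both gene-end peaks were read in all 6 libraries and did not overlap between groups, with log2 differences of 1.90 ± 0.44 (SE) and 1.73 ± 0.42. The Faf1 start had 41.2, 35.2 and 67.5 RPM against 125, 118 and 122. Pde7b, a cyclic AMP phosphodiesterase gene, had 19.9, 17.6 and 1.83 RPM in a peak inside the gene against 74.8, 96.6 and 65.7. Ing2, Pcdh1 and a peak 112 bp from the Thrb start (assigned to LOC115488350, whose end it also meets) were read at 50 nuclei in replicate 1 only, with 6, 2 and 4 reads. Pxylp1, Cadm4 and Ccdc142 complete the 10 and had no read at 50 nuclei.

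The 10 peaks in the other direction, lower at 200 nuclei, were mostly narrow, and 5 of them were missed by at least 1 of the 50-nuclei libraries. The Cfap20dc start had 29, 14 and 0 reads at 50 nuclei and none at 200, and a Glud1 peak inside the gene for glutamate dehydrogenase had 11, 11 and 0 against none. Fgf12, a fibroblast growth factor homologous gene, and Calb1, which encodes the calcium buffer calbindin, had 27 reads each in 50-nuclei replicate 3 and 0 in the other two, and without that replicate their log2 differences turned from -5.62 and -5.46 to 1.15 and 1.27. Inpp5a had 2, 16 and 0 reads against 0, 0 and 2. Another 5 of the 10 were read in all 3 of the 50-nuclei libraries with no overlap in RPM: Lims1, Fut10, Kif5c, Rmc1 and Srebf1. Srebf1, which encodes a regulator of lipid synthesis, had 35.5, 44.0 and 161 RPM at 50 nuclei and 9.42, 19.0 and 19.2 at 200, and Fut10 46.9, 55.8 and 113 against 18.8, 6.59 and 12.0.

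The 6 strongest peaks at 200 nuclei, chosen by that level, were all gene-end peaks of 825 to 1130 bp: Sp1, Zbtb20, Khsrp, Cic, Ubxn6 and Dnpep. The Sp1 peak, at the gene of a general transcription factor, had 708, 622 and 455 RPM at 50 nuclei and 530.3, 689.5 and 668 at 200 (chr15:102405291-102406421). The Zbtb20 peak, at the gene of a zinc finger repressor, had 540.3, 419.7 and 471 RPM against 600.1, 586 and 625. Its groups did not overlap, nor did those of Dnpep, an aminopeptidase gene, with 478, 449 and 431 RPM against 596, 517 and 517. The other 4 overlapped. Because the level at 200 nuclei chose these peaks, the choice favours higher values there. Of all tested nuclear peaks, 12% were higher and 3.18% lower at 200 nuclei without overlap.

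The 8 peaks with no read at 50 nuclei and the highest lowest count at 200 were 90 to 262 bp wide and are a description of the loss, with no test. A distal peak 2288 bp from Cdk9, the kinase gene of the elongation factor P-TEFb, had 36, 40 and 41 reads at 200 nuclei. A distal peak near Mrc2, a collagen-binding receptor gene, had 27, 27 and 62, and one near H2-Eb1, which encodes an MHC class II chain, 27, 29 and 34. The floor was set at 3 reads over the 3 libraries of 50 nuclei, 1.88 RPM. Pooled over the 200-nuclei libraries, these levels were 9.94-fold, 9.85-fold and 7.65-fold above it. The Smad5 start, the gene of a transducer of BMP signals, had 21, 24 and 51 reads at 200 nuclei. Its pooled level was 8.16-fold above the floor. Ccdc142 and Lmo7 at gene ends and Vgll4 and Babam2 inside genes were 6.46-fold to 7.39-fold above the floor. Floors cover counting error only, since reads are not independent molecules. The peaks were also chosen for having no read at 50 nuclei, so these folds are not lower bounds.

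The 200-nuclei libraries held 3.92 times the nuclear reads, so peaks read at 50 nuclei and not at 200 were judged at unequal depth. The 4 peaks read in all 3 of the 50-nuclei libraries with the fewest reads at 200 nuclei were gene-end peaks of 90 to 102 bp at Rmc1, 2310061I04Rik, Hsp90ab1 and Mrpl3. The Rmc1 peak had 6, 7 and 9 reads at 50 nuclei and 0, 0 and 1 at 200. The Mrpl3 peak, at the start of a mitochondrial ribosome gene, had 4, 10 and 7 reads against 0, 0 and 6.

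**Figure D4:**
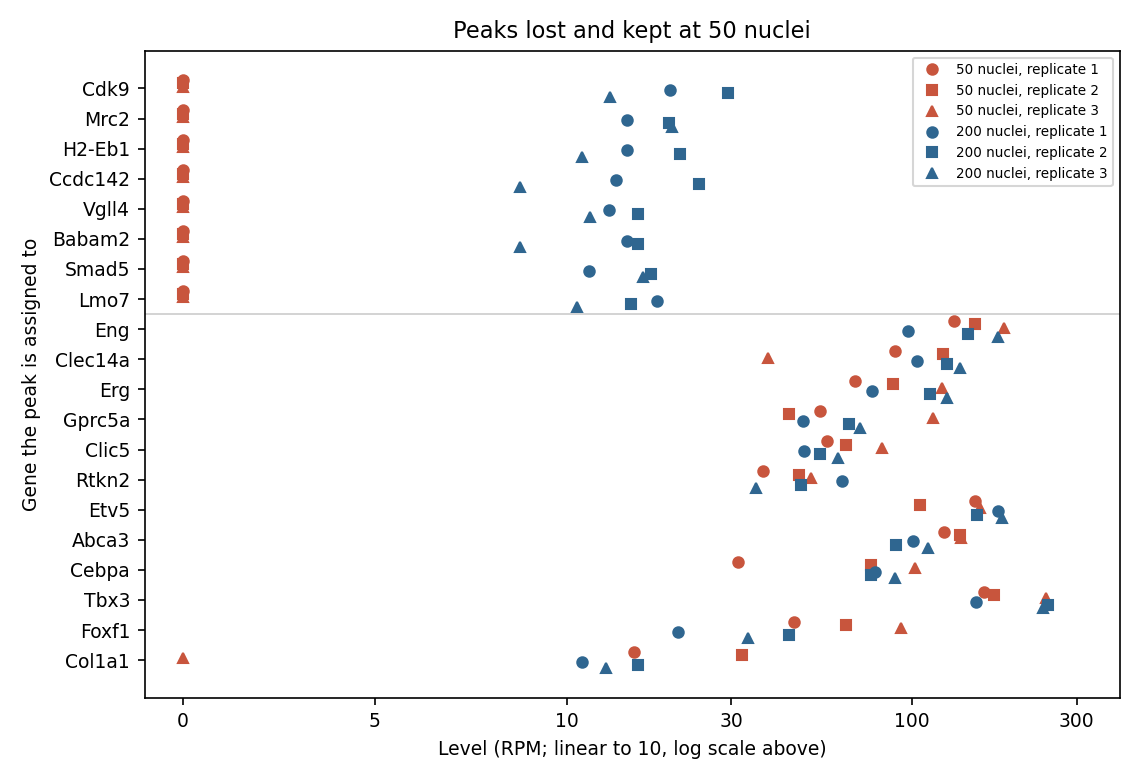
Levels in RPM (x axis, linear to 10 and on a log scale above) of the 8 peaks with no read at 50 nuclei (top) and of the 3 strongest peaks each of endothelial, alveolar type 1, alveolar type 2 and mesenchymal genes (bottom), by gene (y axis); points are libraries. The top peaks lie at 0 in all 3 of the 50-nuclei libraries, whereas below the line only Col1a1 has a library at 0, replicate 3 at 50 nuclei.

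The shares of list peaks with a read at 50 nuclei were set against those of all peaks of like level, with no test. At full depth the largest difference in a library was -2.81 points for endothelial and 3.32 for alveolar type 2 peaks. It was 4.56 points for housekeeping, -6.38 for alveolar type 1 and -16.8 for alveolar capillary peaks. In lists this short a few peaks make such a difference, so no contrast between cell types is drawn. In such bulk libraries fewer nuclei of a cell type and fewer reads per nucleus cannot be told apart. Of 17 endothelial genes 16 had a peak (61 peaks), of 12 alveolar type 1 genes 10 (36 peaks), and of 12 alveolar type 2 genes 11 (23 peaks); Sftpc, the defining surfactant gene, had no assigned peak. At equal depth endothelial peaks were read at 91.5%, 72.1% and 71.6% at 50 nuclei and at 92.0%, 97.4% and 95.3% at 200. Alveolar type 1 peaks were read at 90.0%, 58.3% and 63.2% against 92.3%, 94.8% and 93.6%, and alveolar type 2 peaks at 85.8%, 65.2% and 54.6% against 82.1%, 95.7% and 94.0%. The 52 peaks of 22 housekeeping genes stood at 96.5%, 78.8% and 77.3% against 96.1%, 91.6% and 93.9%, the least lost of the lists with 20 or more peaks. Their median level at 200 nuclei was 28.7 RPM, close to 26.9 RPM for endothelium and above 12.7 RPM for alveolar type 1 peaks. At full depth 93.4%, 72.1% and 72.1% of endothelial peaks were read at 50 nuclei, and 95.3%, 74.9% and 71.1% of all peaks weighted to the same levels. For alveolar type 2 peaks the pairs were 91.3% and 93.2%, 65.2% and 61.9%, and 56.5% and 56.7%. The 25 peaks of alveolar capillary genes lay lower in replicates 2 and 3, at 56.0% against 72.8% and 64.0% against 68.4%, and higher in replicate 1, at 100% against 96.9%. For alveolar type 1 peaks the pairs were 94.4% and 93.4%, 58.3% and 64.7%, and 63.9% and 59.8%. Macrophage and monocyte peaks (9) lay 22.7 points above the matched share in replicate 2, and neuronal peaks 12.0 and 10.8 points below it in replicates 1 and 3; lists this small differed both ways.

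**Figure D5:**
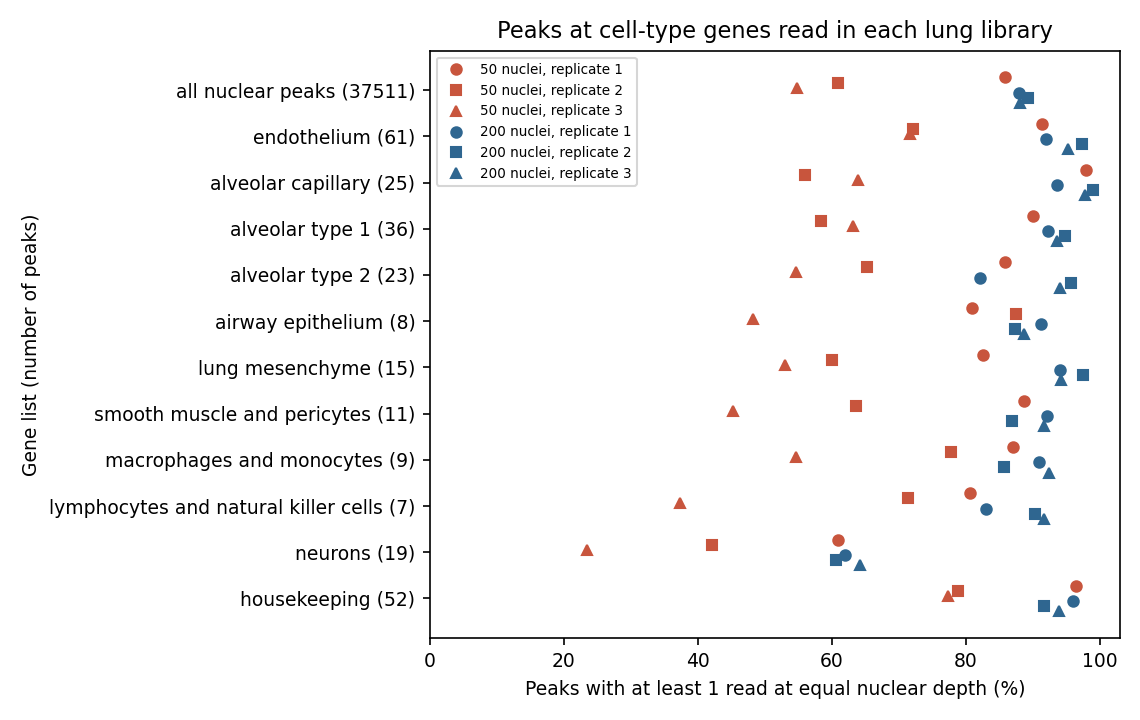
Share of the peaks of each gene list with at least 1 read at equal depth (x axis, %) by list (y axis, number of peaks in brackets); points are libraries. Housekeeping and endothelial peaks stay above 71% in every library, and the neuronal list, no lung cell type, reaches 23.4% to 60.9% at 50 nuclei and 60.6% to 64.2% at 200.

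No peak of the lists passed the edgeR test. Of 61 endothelial peaks 7 were higher and 0 lower at 200 nuclei at an unadjusted p under 0.05, with 8 (13.1%) higher and 2 (3.28%) lower without overlap in RPM, near the shares of all peaks given above. The median log2 difference was 0.08 for endothelial, 0.22 for alveolar type 1, 0.52 for alveolar type 2, 0.79 for mesenchymal and 0.12 for housekeeping peaks, against 0.33 for all peaks. The scaling shifts that last value to 0.62 with library totals, 0.44 with nuclear peaks only and 0.17 with DESeq2, so list medians are read against it. The summed level of the endothelial list was 1973 to 2377 RPM at 50 nuclei and 1856 to 2675 at 200. That of the alveolar type 2 list was 572 to 633 RPM against 579 to 676. Macrophage and monocyte peaks summed to 102 to 141 RPM at 50 nuclei and 99.2 to 108 at 200. All 3 ranges overlapped between sizes.

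The lists of other cell types held few peaks. At equal depth the 15 mesenchymal peaks were read at 82.6%, 60.0% and 53.0% at 50 nuclei against 94.1% to 97.6% at 200. The 11 smooth muscle and pericyte peaks stood at 88.8%, 63.6% and 45.3%, and the 8 airway peaks at 80.9%, 87.5% and 48.2%. The 9 macrophage and monocyte peaks stood at 87.0%, 77.8% and 54.7%, and the 7 lymphocyte and natural killer cell peaks at 80.7%, 71.4% and 37.3%. Of the neutrophil genes Mmp9 alone had peaks (3), with a summed level of 42.7, 5.87 and 106 RPM at 50 nuclei and 16.3 to 18.3 at 200. Of the mesothelial genes Krt19 alone had a peak, with 14.2, 26.4 and 0 RPM against 7.48 to 16.1. The neuronal list, with 10 of 12 genes and 19 peaks, summed to 115, 211 and 62.1 RPM against 146 to 175.

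Some cell-type genes had no read in 1 or more of the 50-nuclei libraries. This was not confined to them: of all 12670 genes with a peak, 12263, 10504 and 10135 had a read. In replicates 2 and 3, 0 and 1 of 16 endothelial genes and 3 and 1 of 9 capillary genes had none. For alveolar type 1 genes the counts were 1 and 1 of 10, for alveolar type 2 genes 2 and 3 of 11, and for mesenchymal genes 4 and 2 of 9. Lists were not tested against all genes. Meox2 and Sox2 had no read in any of the 3 libraries, and Aplnr none in 2. Among others, in 50-nuclei replicate 2 no read fell on any peak of Ager, the alveolar type 1 receptor gene, of the surfactant gene Sftpa1 or Lamp3, of the capillary receptor genes Aplnr, Calcrl and Ednrb, or of the mesenchymal regulators Tbx4, Tbx5, Tcf21 and Meox2. In replicate 3 no read fell on, among others, Sox17, Aplnr, Pdpn, Nkx2-1, Sftpb, Slc34a2, Col1a1, Meox2, Notch3 or Pdgfrb. In replicate 1 Meox2 and the airway gene Sox2 alone were without a read among the lung cell-type lists. Sox2 had no read in any 50-nuclei library nor in 200-nuclei replicate 2, and it was the one lung cell-type gene without a read in a 200-nuclei library.

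Several of the strongest cell-type peaks were read in every library. The endoglin peak inside Eng had 132, 153 and 184 RPM at 50 nuclei and 97.5, 145 and 178 at 200 (chr2:32661489-32662138; log2 difference 0.08 ± 0.34). The start of Clec14a, another endothelial gene, had 89.6, 123 and 38.3 RPM against 104, 127 and 138. Etv5, an ETS factor gene of alveolar type 2 cells, had 152, 106 and 157 RPM against 178, 154 and 182, and Clic5, an alveolar type 1 gene, 56.9, 64.6 and 82.2 against 48.8, 54.2 and 61.1. All 4 overlapped between sizes. The distal Car4 peak of alveolar capillary cells had 72.5, 91.0 and 243 RPM at 50 nuclei and 38.8, 62.2 and 68.6 at 200, higher in every 50-nuclei library (log2 difference -0.99 ± 0.43, edgeR adjusted p = 0.53). The Abca3 start, a lipid transporter gene of lamellar bodies, had 124, 138 and 139 RPM against 101, 90.0 and 111. Spi1, which encodes the myeloid factor PU.1, had 46.9, 58.7 and 45.6 RPM against 15.5, 19.0 and 26.7. Of the mesenchymal genes, Tbx3 had 162, 173 and 245 RPM in a gene-end peak against 153, 247 and 240, with overlap. A distal Foxf1 peak had 45.5, 64.6 and 93.1 RPM against 21.1, 43.9 and 33.5, higher in every 50-nuclei library (edgeR adjusted p = 0.78). Other list peaks varied widely at 50 nuclei, strong ones among them. The smooth muscle gene Myh11 had 5.69, 20.6 and 115 RPM at 50 nuclei, and a Col1a1 peak 15.6, 32.3 and 0. A peak of the airway gene Rfx3, which encodes a ciliogenesis factor, had 81.0, 96.9 and 3.65 RPM at 50 nuclei and 81.5, 73.2 and 88.1 at 200. One of the neuronal gene Stmn2 had 11.4, 67.5 and 0 RPM against 56.0, 46.1 and 41.3.

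Mitochondrial DNA, which carries no nucleosomes, took more of the reads at 50 nuclei. The 2 mitochondrial peaks held 58.0%, 40.6% and 49.4% of reads in peaks at 50 nuclei and 38.4%, 28.0% and 24.7% at 200. The means were 49.3% ± 8.70 and 30.3% ± 7.15 (n = 3 each), a difference of -19.0 points with no overlap (exact permutation p = 0.1). They had the lowest adjusted p of all peaks in edgeR's quasi-likelihood test, 0.0567, with log2 differences of -0.99 ± 0.18 and -1.01 ± 0.19. Both were lower at 200 nuclei in all 13 alternative fits that held them and passed in 6. These were library totals (edgeR adjusted p = 5.9e-10), the replicate block, the fits without 50-nuclei replicate 2 (0.00655), without replicate 3 (0.00176) and without both, and that without 200-nuclei replicate 1 (0.00237). They did not pass in the other 7, DESeq2 (adjusted p = 0.0963 and 0.0997) and the 6 lung libraries alone (edgeR adjusted p = 0.878) included. Among the 50-nuclei libraries, replicate 1 had the highest mitochondrial share and the most peaks read. Among the 200-nuclei libraries at full depth, replicate 1 had the highest share and the fewest peaks read (96.1%). Replicate 3 of that group had the lowest share and the most peaks read (97.6%). Whether the mitochondrial share goes with the peaks lost was not tested.

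In brain, with 2 libraries of each size, it was the 50-nuclei libraries that read more peaks. At 319307 nuclear reads, the depth all 10 libraries reach, lung libraries read 85.2%, 60.7% and 54.6% of peaks at 50 nuclei and 87.3%, 88.6% and 87.3% at 200, and brain libraries 93.0% and 90.1% against 83.8% and 88.2%. The size effect was 20.9 points in lung and -5.54 in brain, a difference of 26.4 (exact permutation of size within tissue, 120 arrangements, p = 0.0167, the smallest they can give). For single peaks, edgeR's quasi-likelihood test of that difference called 0 of 37466, with 1554 (4.15%) at an unadjusted p under 0.05, and DESeq2 called 0.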

How the data were processed

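ATAC-seq after laser capture of nuclei from frozen mouse lung sections was read from the table of whole-number read counts per peak that the authors deposited. The submitters' processing notes name mm10, MACS2 2.2.7.1, Bowtie2 2.4.5, SAMtools 1.14, Picard, Trimmomatic 0.36, R 4.1.0, deepTools 3.1.3 and bcl2fastq 2.20, without their roles. How peaks were merged and reads counted is not given in the sources used here. Libraries were grouped by the labels' titles; all count columns were used, and no row lacked a name.

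Peaks were classed and assigned (gene end or body within 5000 bp) with RefSeq GRCm38.p6 gene positions; 5689 of the 28727 peaks with a gene had more than 1 gene in reach, and the table of gene starts is incomplete. Equal depth used the hypergeometric expectation at 340697 nuclear reads. Values per library were compared by exact two-sided permutation. Counts per peak were tested with edgeR 4.0.16 (TMM, quasi-likelihood, Benjamini-Hochberg at 0.05) on all 10 libraries, 1 mean per tissue and size, over peaks with at least 10 reads in sum; DESeq2 1.42.0 was an alternative. Scripts were tested on simulated data. Python 3.11.15, NumPy 2.4.6, SciPy 1.17.1 and pandas 2.3.3 were used.

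Depth was 573596 to 1675105 reads in peaks at 50 nuclei and 1896166 to 4083252 at 200. Named peaks were the 10 with the lowest p in each direction, the strongest peaks of 13 gene lists (158 genes), the 6 strongest at 200 nuclei, the 8 with no read at 50 and the highest lowest count at 200, and the 4 read in every 50-nuclei library with the fewest RPM at 200. The members and lists were chosen with earlier results of these data known. Alternatives covered filters, scaling, class windows, read minimum, depth and libraries left out.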

Additional observations from a re-analysis of the deposited data

Results flagged for a closer look

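The size effect on the share of nuclear peaks with a read, at 1 depth for the 10 libraries, differed between lung and brain by 26.4 percentage points (lung 20.9, brain -5.54). It was flagged because permuting the size labels within each tissue gave the observed or a larger difference in the smallest share of the 120 arrangements possible, p = 0.0167 (exact permutation). The permutation is exact only if size had no effect in either tissue. The same exact permutation gave p = 0.0167 for gene-end peaks (difference 17.5 points), gene-body peaks (30.8), distal peaks (32.7), wide peaks (5.09) and narrow peaks (37.0), which share their reads and are not separate evidence. Brain had 2 libraries of each size. The lung effect rests mostly on 50-nuclei replicates 2 and 3, which read 60.7% and 54.6% of peaks at this depth. Replicate 1 read 85.2%, against 87.3% to 88.6% at 200 nuclei.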

How the results depend on the processing

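With a minimum of 5 reads per peak in place of 1, the class changes (200 minus 50 nuclei) reversed. They were 2.22 points for gene-end minus distal, 1.40 for gene-end minus gene-body and 10.8 for wide minus narrow, and the cause was not tested. The equal-depth difference over all nuclear peaks was then 3.18 points, with overlap between the groups, and 15.9 points at a minimum of 2 reads. The gene-end share of reads reversed to -0.404 without 200-nuclei replicate 1 and to -0.111 without 50-nuclei replicates 2 and 3, and the share of the top 1% of peaks to 0.166 without the latter pair. Leaving out each library in turn gave 21.0 to 38.4 points for the share of peaks read, 15.1 to 30.6 at equal depth, -13.7 to -7.01 for gene-end minus distal, -12.1 to -6.19 for gene-end minus gene-body, -35.9 to -19.0 for wide minus narrow, -0.404 to 1.18 for the gene-end share of reads, -0.959 to -0.146 for the top 1% share and -23.4 to -14.6 for the mitochondrial share. It gave 0 to 252 called peaks (2 without 50-nuclei replicate 2, 6 without replicate 3, 2 without 200-nuclei replicate 1; each of these sets holds both mitochondrial peaks, and the rest are 0, 4 and 0 nuclear peaks) and 0 for the difference between tissues. Called peaks numbered 3 with library totals (2 for the difference between tissues), 1 with thinned nuclear reads, 3 with DESeq2 and 15 without 50-nuclei replicates 2 and 3 (3 for the difference). Of these, the library-total and last sets hold both mitochondrial peaks in either comparison, leaving 1 and 13 nuclear peaks for lung size and 0 and 1 for the difference. Fgf12 and Calb1 reversed without 50-nuclei replicate 3 (log2 1.15 and 1.27, the highest values on leaving out 1 library, the lowest being -6.35 and -6.65) and without replicates 2 and 3 (1.22 and 1.31). Among wide peaks alone, added after the data had been seen, the gene-end changes were -2.66 and -0.885 points.

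No pairing by replicate number was seen: deviations of same-numbered libraries correlated at 0.02, -0.00 and 0.01. Noise between libraries could hide a shared animal or section, so this check cannot exclude pairing. A fit with the replicate block called 3 peaks, and 2 for the difference between tissues, both mitochondrial peaks in each; under pairing the equal-depth difference was 21.3 points (exact sign-flip permutation p = 0.25, the smallest possible). Depth limits what can be said of weak peaks: at 5 RPM, 50-nuclei libraries hold few reads, and an empty peak there does not show closed chromatin.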

Other observations

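Chromosome X, with 813 peaks, was read at 83.4%, 56.7% and 44.5% of its peaks at equal depth in the 50-nuclei libraries and at 86.4%, 88.3% and 84.0% at 200. The 36696 autosomal peaks stood at 85.9%, 61.0% and 55.0% against 88.0%, 89.4% and 88.2%. The X share of nuclear reads was 1.65%, 1.67% and 1.31% at 50 nuclei and 1.62% to 1.69% at 200, so replicate 3 at 50 nuclei was low on both measures. The sex of the animals was not used here.

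Gene starts were also split into tertiles by CG dinucleotides in the listed window. The starts with fewest were read at a mean of 71.4% ± 13.8 at 50 nuclei and 88.5% ± 0.732 at 200 (n = 3 each), the middle tertile at 78.2% ± 10.1 and 91.1% ± 0.548, and the starts with most at 77.7% ± 10.8 and 91.6% ± 0.190. Their median levels at 200 nuclei were 17.6, 28.9 and 29.6 RPM. In the 5 to 10 RPM bin the 50-nuclei means of the 3 tertiles were 52.7%, 50.9% and 51.6%.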
